A study of Mus musculus with 6 samples.

Results

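The 10 genes described here encode parts of the neuronal cytoskeleton: the neurofilament subunits Nefl, Nefm, Nefh and Ina, the neuronal tubulin Tubb3, the microtubule-associated proteins Map2, Mapt, Map1a and Map1b, and the microtubule regulator Stmn2. They were chosen by name among the 27884 genes of the deposited table, and each name matched 1 row. RNA was taken from the preoptic area, a hypothalamic region known for its role in body temperature, in 17- to 18-week-old females of the cross NuTRAP::Pnoc-Cre. In this cross Cre from the Pnoc gene switches on an EGFP tag on ribosomes, so that all libraries of both groups come from animals of the same genotype. The 3 IP libraries hold RNA from ribosomes bound by an antibody against GFP, and the 3 input libraries hold total RNA of the same tissue. Each replicate is a pool of tissue punches from 3 animals, so that the spread between replicates is that between pools. A cell is tagged if it carried Pnoc-Cre activity, which marks Cre history and not present Pnoc expression.

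Neurofilaments are the intermediate filaments of axons, built from light, medium and heavy subunits together with alpha-internexin, and they are most abundant in large neurons with long axons. Microtubules are hollow polymers of alpha and beta tubulin, and TUBB3 is the beta tubulin found mainly in neurons. Microtubule-associated proteins bind along the polymer and differ in place: MAP2 is known from dendrites and cell bodies, where its mRNA is also transported, and tau, the product of Mapt, from axons. Stathmins bind free tubulin dimers and promote the shrinking of microtubules.

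The IP libraries held 48204567 to 51380354 counts in all, and the input libraries 49068467 to 53056642. Pnoc, whose Cre marks the tagged cells, had 47.7, 43.1 and 41.1 CPM in the IP libraries and 7.51, 11.0 and 13.2 CPM in the input libraries (CPM, counts scaled to a common library size with TMM factors). Markers of glia were lower in IP. All 10 astrocyte markers fell, with a summed level of 332 to 440 CPM in IP libraries and 2039 to 2902 CPM in input libraries. All 10 oligodendrocyte markers fell as well, with 694 to 1018 CPM in IP libraries and 5201 to 6622 CPM in input libraries. None of these 20 markers was at 0 in any library. Of other cells, all 6 markers of oligodendrocyte precursors, all 10 of microglia, 8 of 9 of vessels and 3 of 5 of ependyma fell, with Kcnj8 of mural cells and Tmem212 of ependyma at 0 in some library. Of 15 neuronal genes without a role in the cytoskeleton 7 rose and 1, Syn1, fell, and their median log2 fold change was 0.36. Of 8 GABAergic markers 4 rose (median 0.72), and of 6 magnocellular markers 2 rose and 3 fell. Of all tested genes 12.9% rose and 17.1% fell in the edgeR test given below. The part of the lower glial RNA of IP in the results below was not tested. In bulk RNA, fewer cells of a type and less RNA per cell cannot be told apart.

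The 10 cytoskeleton genes did not share a direction. Tubb3, Nefl and Mapt were higher in IP than in input, 7 of the 10 genes had a higher level in IP in every pool, and Map2 had a lower level in IP in every pool. The share of all tested genes with the same direction in every pool was not counted, so that these counts by pool are a description only. Of the 10 genes 3 rose and 0 fell in edgeR's quasi-likelihood test across 18640 genes at an adjusted p under 0.05, against 12.9% of all tested genes that rose and 17.1% that fell. At an unadjusted p under 0.05, 4 were higher and 1 was lower, against 18.4% and 23.3% of all tested genes. DESeq2 called 4 higher and 0 lower, against 16.4% and 19.7% of all tested genes. All 10 passed the filter on low counts, with at least 3586 counts in each library, where counting error is at most 1.67%. The median log2 fold change of the 10 genes was 0.46, beside -0.07 over all tested genes. For 4 of the 10 genes every IP library lay above every input library, which held for 21.7% of all tested genes. The opposite order held for 0 of the 10 and for 26.0% of all tested genes.

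**Figure D1:**
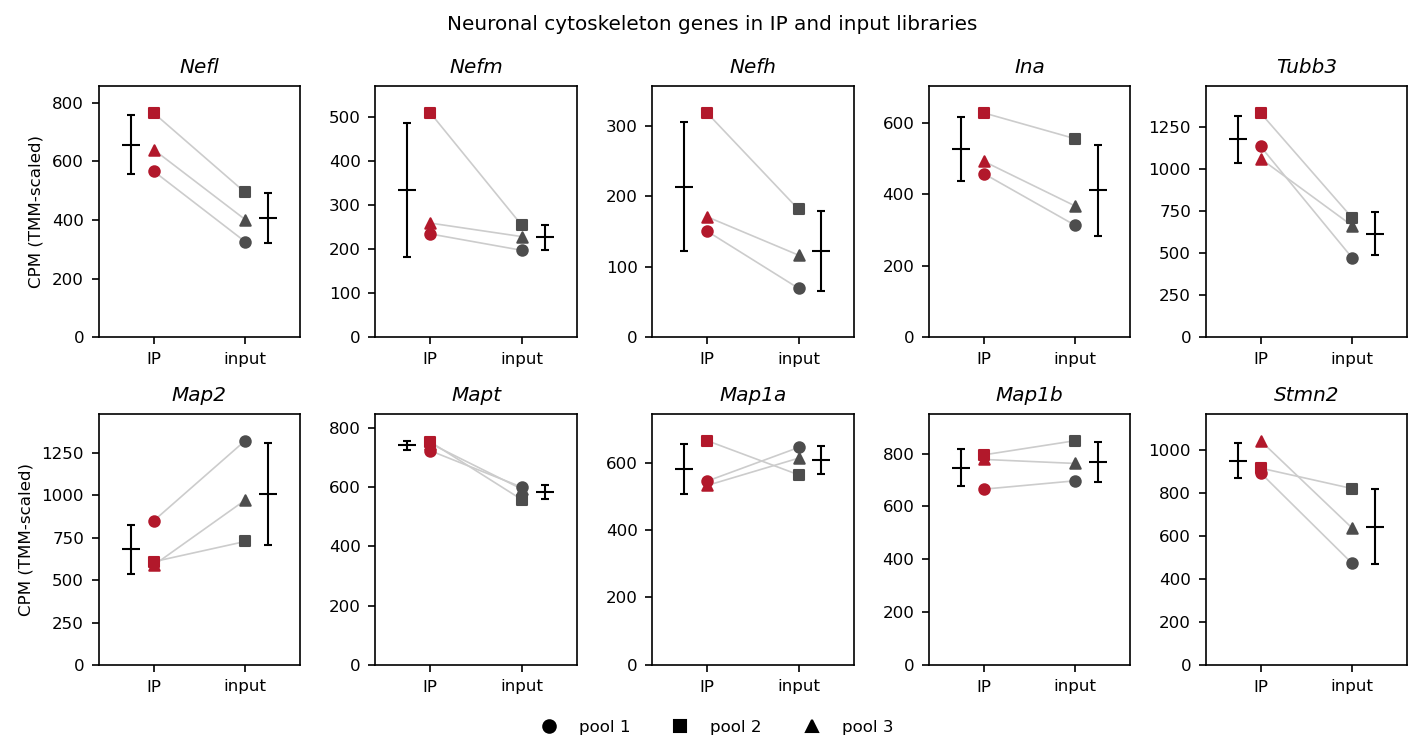
Level of each gene in CPM (vertical axis, from 0) in the 3 IP libraries (red, left) and the 3 input libraries (grey, right); lines join libraries of the same tissue pool and bars give the mean ± SD (n = 3). The IP and input points of Tubb3, Nefl, Mapt and Stmn2 do not overlap, and Map2 is lower in IP along each line.

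Because replicates with the same number came from the same tissue pool, a fit with the pool as a block was set beside the first. With the block 5 of the 10 genes rose (Tubb3, Nefl, Nefh, Stmn2 and Ina) and 1 fell (Map2), against 15.2% and 19.4% of all tested genes. With an offset for gene length and no block 4 rose (Tubb3, Nefl, Mapt and Stmn2) and 0 fell, against 15.0% and 16.2%. With the block and the offset together 7 rose and 0 fell, against 17.9% and 18.3% of all tested genes. The 7 were the 4 neurofilament genes, Tubb3, Mapt and Stmn2. In the authors' deposited table, 5 of the 10 genes were higher and 0 lower at an adjusted p under 0.05, namely Tubb3, Nefl, Stmn2, Mapt and Nefh, against 10.3% and 13.5% of the 27884 genes listed there.

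The sequences just before the start of transcription are given for Tubb3, Nefl, Nefh and Ina, since the first had the largest fold change of the 10 in the fit without correction and the others varied together across pools. Nefm shared that order of pools, but its window is not shown here. Each is the 200 bases upstream of the canonical transcript of GENCODE M39, read from the GRCm39 genome on the gene's strand. Capitals mark matches on either strand to 4 short promoter motifs: TATAAA of the TATA box, CCAAT of the box of that name, GGGCGG of the GC box, which reads CCGCCC on the other strand, and TGACG, which is only a part of the cAMP response element. No match overlaps another in these windows. The windows lie at chr8:124137963-124138162 on the plus strand for Tubb3, chr14:68321068-68321267 on the plus strand for Nefl, chr11:4898131-4898330 on the minus strand for Nefh and chr19:47002920-47003119 on the plus strand for Ina.
Tubb3: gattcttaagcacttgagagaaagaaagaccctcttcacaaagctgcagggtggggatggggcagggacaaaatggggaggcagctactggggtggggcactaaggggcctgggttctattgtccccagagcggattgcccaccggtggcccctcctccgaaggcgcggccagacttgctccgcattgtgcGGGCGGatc
Nefl: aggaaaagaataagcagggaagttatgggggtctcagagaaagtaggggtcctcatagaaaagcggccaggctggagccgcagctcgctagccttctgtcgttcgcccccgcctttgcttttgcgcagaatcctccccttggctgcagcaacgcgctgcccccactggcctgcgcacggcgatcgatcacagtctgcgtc
Nefh: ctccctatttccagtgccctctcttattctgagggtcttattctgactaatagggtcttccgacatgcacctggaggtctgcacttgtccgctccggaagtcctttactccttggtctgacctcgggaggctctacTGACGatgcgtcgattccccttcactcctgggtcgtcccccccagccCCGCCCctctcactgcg
Ina: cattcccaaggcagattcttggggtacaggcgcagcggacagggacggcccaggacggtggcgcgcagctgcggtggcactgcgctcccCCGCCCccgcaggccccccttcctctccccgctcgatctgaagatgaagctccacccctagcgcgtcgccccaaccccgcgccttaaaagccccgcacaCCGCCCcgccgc
None of the 4 windows held TATAAA, which stood in 6.74% of the same windows of 17366 protein-coding genes. GGGCGG or its complement stood in the windows of Tubb3, Nefh and Ina and in 41.7% of all windows. TGACG was present in the Nefh window and in 18.1% of all windows, and CCAAT in none of the 4 and in 31.5% of all windows. The Nefl window held none of the 4 motifs. These matches describe letters in a window and not sites that are bound.

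Nefl, the light subunit that every neurofilament needs, rose in IP. The gene (ENSMUSG00000022055, chromosome 14, 68321312 to 68326544, plus strand, mm39) had 566, 765 and 640 CPM in IP replicates 1, 2 and 3 and 326, 494 and 401 CPM in input replicates 1, 2 and 3. Every IP library was above every input library. IP exceeded input by a log2 fold change of 0.69 ± 0.18 (SE, n = 3 each), or 1.61-fold (Benjamini-Hochberg adjusted p = 0.0210, edgeR). The call did not pass without IP replicate 2, IP replicate 3 or input replicate 3 (adjusted p = 0.0775, 0.0592 and 0.0774, edgeR), nor without both libraries of replicate 3 (adjusted p = 0.175, edgeR).

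Nefm, the medium subunit (ENSMUSG00000022054, chromosome 14, 68320039 to 68362295, minus strand), did not pass the test. It had 234, 508 and 259 CPM in IP libraries 1, 2 and 3 and 197, 253 and 228 CPM in input libraries 1, 2 and 3. The IP library of pool 2 stood far above all the others, and the IP libraries of pools 1 and 3 lay within or close to the range of input. Its log2 fold change was 0.56 ± 0.28 (SE, adjusted p = 0.17, edgeR), and without IP replicate 2 it was 0.12 (adjusted p = 0.63, edgeR). With the block and the length offset Nefm was called higher at 0.59 ± 0.15 (SE, adjusted p = 0.0117, edgeR).

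Nefh, the heavy subunit with long phosphorylated side arms (ENSMUSG00000020396, chromosome 11, 4888754 to 4898064, minus strand), had the lowest counts of the 10 genes and differed widely between pools. It had 150, 318 and 171 CPM in IP libraries 1, 2 and 3 and 69.3, 181 and 116 CPM in input libraries 1, 2 and 3. The groups overlapped, since input of pool 2 lay above IP of pools 1 and 3, while IP exceeded input within each pool. IP over input gave a log2 fold change of 0.80 ± 0.38 (SE, adjusted p = 0.15, edgeR) without the block and 0.83 ± 0.15 (SE, adjusted p = 0.00200, edgeR) with it. Single libraries moved the value, to 0.39 without IP replicate 2 and 0.53 without input replicate 1 (adjusted p = 0.47 and 0.29, edgeR), and to 1.23 without input replicate 2, where Nefh was called (adjusted p = 0.0476, edgeR). In the authors' deposited table its log2 fold change was 0.83, with an adjusted p of 0.0454.

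Ina, which encodes alpha-internexin (ENSMUSG00000034336, chromosome 19, 47003137 to 47013766, plus strand), had 458, 628 and 493 CPM in IP libraries 1, 2 and 3 and 313, 556 and 367 CPM in input libraries 1, 2 and 3. Its groups overlapped through input of pool 2. The log2 fold change was 0.35 ± 0.22 (SE, adjusted p = 0.27, edgeR) without the block and 0.38 ± 0.13 (SE, adjusted p = 0.0483, edgeR) with it. It was 0.19 without input replicate 1 and 0.21 without IP replicate 2 (adjusted p = 0.53 and 0.59, edgeR), and 0.67 without input replicate 2, where Ina was called (adjusted p = 0.0317, edgeR). The log2 ratio of IP to input was 0.55, 0.18 and 0.42 in pools 1, 2 and 3.

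Counts of the neurofilament genes may be affected, upward or downward, by neighbours that share exon bases with them. In GENCODE M39 annotated Nefm exons outside its canonical transcript share 1152 bases with Nefl on the opposite strand, or 33.6% of the exon bases of Nefl and 19.4% of those of Nefm. Nefm shares a further 1117 bases with the long noncoding gene A230070E04Rik, Nefh 861 bases with Ap1b1 and Ina 526 bases with Nt5c2, all on opposite strands. Whether counting used strand is not given in the sources used here, so that the values of these 4 genes are uncertain to that extent. For Tubb3, Stmn2, Mapt and Map2 none of the 75-base windows of the canonical transcript occurred in a transcript of another gene.

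All 4 neurofilament genes were highest in pool 2 and lowest in pool 1, in IP and in input alike. Their summed level was 1409, 2220 and 1562 CPM in IP replicates 1, 2 and 3 and 905, 1484 and 1113 CPM in input replicates 1, 2 and 3. In Nefh the input of pool 2 was 2.62 times that of pool 1, more than the 1.74-fold difference fitted between IP and input. Markers of neighbouring regions also differed between the pools. Genes known from thalamus (Tcf7l2, Prkcd, Lef1, Rora, Ntng1 and Calb2) summed to 814, 2342 and 1439 CPM in IP replicates 1, 2 and 3 and to 353, 1390 and 981 CPM in input replicates 1, 2 and 3, the same order of pools as the neurofilament genes. All 6 were above 0 in each library, and 1 of the 6, Calb2, rose in IP, while 4 rose with the block. Calb2 did not follow the order of the sum. It had 572, 573 and 552 CPM in IP replicates 1, 2 and 3 and 173, 339 and 353 CPM in input replicates 1, 2 and 3. Striatal markers summed to 609, 322 and 400 CPM in IP replicates 1, 2 and 3 and to 1910, 486 and 810 CPM in input replicates 1, 2 and 3. Of 9 striatal markers 3 fell, and 7 with the replicate block. Cortical excitatory markers summed to 155, 384 and 204 CPM in IP replicates 1, 2 and 3 and to 713, 257 and 177 CPM in input replicates 1, 2 and 3. Of the 8 cortical markers tested 0 passed in edgeR, in DESeq2 and at an unadjusted p under 0.05, and 3 fell with the block. Emx1 was not tested and was at 0 in some library. Septal cholinergic markers summed to 226, 331 and 324 CPM in IP replicates 1, 2 and 3 and to 135, 235 and 230 CPM in input replicates 1, 2 and 3. These sums too had the order of pools of the neurofilament genes, with pools 2 and 3 close together. Of these 7 markers 0 passed in edgeR, 2 were higher at an unadjusted p under 0.05, 3 rose in DESeq2 and 4 with the block. Of all tested genes 12.9% rose and 17.1% fell in edgeR, 15.2% and 19.4% with the block and 16.4% and 19.7% in DESeq2. At an unadjusted p under 0.05, 18.4% were higher and 23.3% lower in edgeR. The part of the regional markers in the levels of the cytoskeleton genes was not tested.

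**Figure D2:**
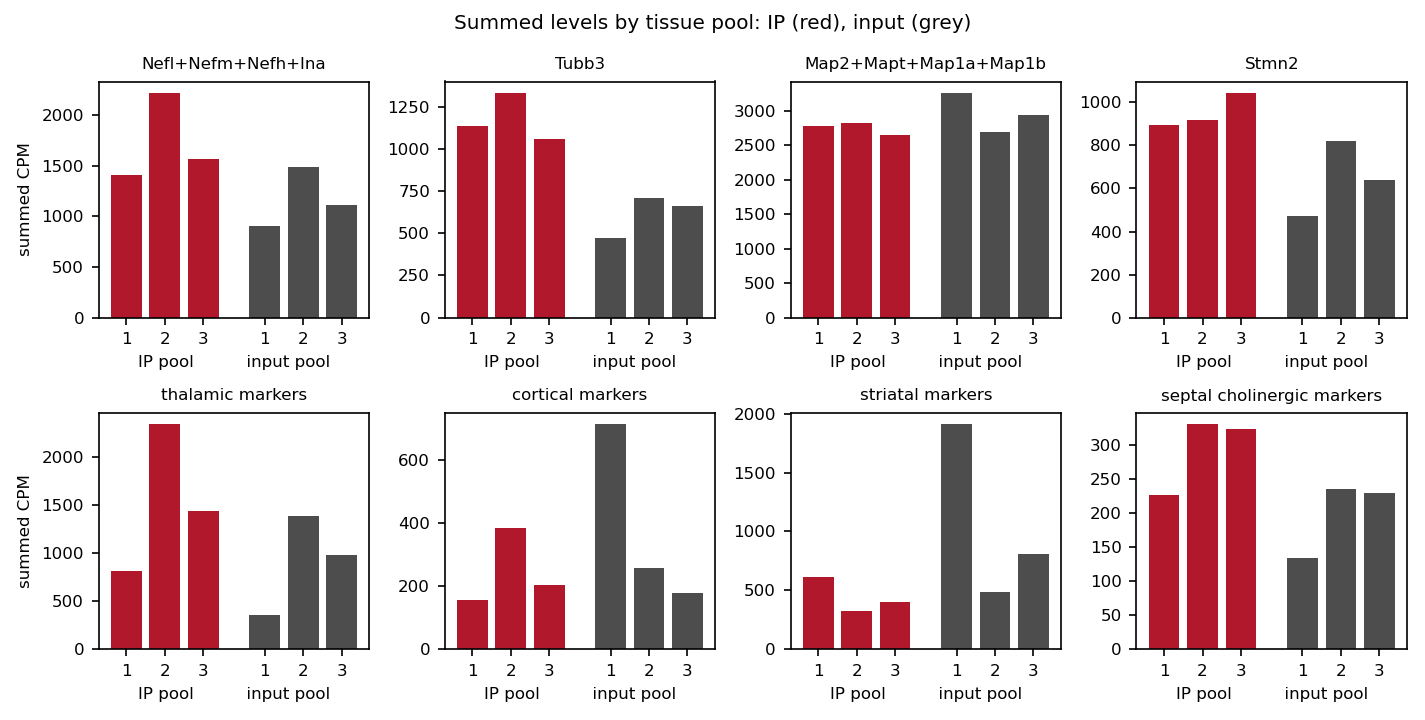
Summed CPM (vertical axis, from 0) per library, IP in red at the left and input in grey at the right of each panel, by tissue pool; the upper row shows the cytoskeleton genes and the lower row lists of regional markers. The neurofilament, thalamic and septal cholinergic sums are highest in pool 2 and lowest in pool 1 in both kinds of library. The cortical and striatal sums of input are highest in pool 1.

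By a rule on likeness, the 5 protein-coding genes whose levels over the 6 libraries followed the neurofilament genes most closely were Paox, Lrtm2, Polr1e, Vps72 and Scrt2, with Pearson's r of 0.984 to 0.997 among 9982 genes with a mean of at least 3 log2 CPM. Paox encodes a polyamine oxidase, Polr1e a subunit of RNA polymerase I, Vps72 a chromatin complex subunit and Scrt2 a neuronal zinc finger protein. Lrtm2 had 64.0, 121 and 79.0 CPM in IP libraries 1, 2 and 3 and 47.1, 77.7 and 58.8 CPM in input libraries 1, 2 and 3. The libraries share pools, so that r describes these 6 libraries.

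Tubb3 had the largest log2 fold change of the 10 genes in the fits without correction and with the block. Nefh exceeded it with the length offset (0.83 against 0.82), with block and offset (0.86 against 0.82), without IP replicate 1 and without input replicate 2. Tubb3 lies on chromosome 8 from 124138163 to 124148754 on the plus strand (ENSMUSG00000062380, mm39). It had 1136, 1335 and 1063 CPM in IP libraries 1, 2 and 3 and 473, 711 and 664 CPM in input libraries 1, 2 and 3. No IP library overlapped with input, and the lowest IP value lay well above the highest input value. IP exceeded input by 0.94 ± 0.17 on the log2 scale (SE, n = 3 each), or 1.91-fold (adjusted p = 0.00531, edgeR's quasi-likelihood test). Tubb3 was called without any single library, at log2 fold changes of 0.78 to 1.08, but not without both libraries of replicate 3 (1.06, adjusted p = 0.0701, edgeR).

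Stmn2, a stathmin of growing and regenerating axons (ENSMUSG00000027500, chromosome 3, 8574420 to 8626666, plus strand), missed the threshold narrowly. It had 895, 917 and 1045 CPM in IP libraries 1, 2 and 3 and 473, 822 and 638 CPM in input libraries 1, 2 and 3. All IP values lay above all input values, with input of pool 2 close to the IP libraries. The log2 fold change was 0.56 ± 0.19 (SE, adjusted p = 0.0572, edgeR). It passed with the block at 0.60 ± 0.16 (SE, adjusted p = 0.0152, edgeR) and in DESeq2 (adjusted p = 0.0203). It also passed without input replicate 2 (0.81, adjusted p = 0.0146, edgeR) and without both libraries of replicate 2 (0.83, adjusted p = 0.0427, edgeR).

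The 4 genes of microtubule-associated proteins had log2 fold changes from -0.56 to 0.34. They lie, on mm39, at 104122216 to 104222916 of chromosome 11 (Mapt, plus strand), 66214432 to 66481742 of chromosome 1 (Map2, plus strand), 121120081 to 121141313 of chromosome 2 (Map1a, plus strand) and 99557954 to 99653048 of chromosome 13 (Map1b, minus strand). Mapt, which encodes tau, had the least spread of the 10 genes, with 722, 752 and 746 CPM in IP libraries 1, 2 and 3 and 599, 557 and 593 CPM in input libraries 1, 2 and 3. The groups did not overlap. Its log2 fold change was 0.34 ± 0.10 (SE, n = 3 each), a 1.27-fold difference (adjusted p = 0.0346, edgeR's quasi-likelihood test). Mapt missed the threshold with the block (0.34 ± 0.13, SE, adjusted p = 0.0554, edgeR), and of the 6 fits without a single library it kept its call in 1, that without input replicate 1.

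Map2, the dendritic protein, had 849, 608 and 588 CPM in IP libraries 1, 2 and 3 and 1322, 728 and 972 CPM in input libraries 1, 2 and 3. It was lower in IP within each pool, and the groups overlapped because IP of pool 1 lay above input of pool 2. Its log2 fold change was -0.56 ± 0.23 (SE, adjusted p = 0.10, edgeR) without the block and -0.54 ± 0.14 (SE, adjusted p = 0.0123, edgeR) with it. Without input replicate 1 it was -0.31 (adjusted p = 0.26, edgeR), and Map2 was called lower without input replicate 2 (-0.71, adjusted p = 0.0337, edgeR) and without both libraries of replicate 1 (-0.51, adjusted p = 0.0466, edgeR). The highest input value was that of pool 1, whose input also had the highest cortical and striatal sums. In IP the striatal sum was highest in pool 1, while the cortical sum was lowest in pool 1. Unlike the neurofilament genes, Map2 was highest in pool 1 in both kinds of library.

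Map1a and Map1b, which encode large microtubule-binding proteins of mature and of growing neurites, were close to equal in both groups. Map1a had 545, 665 and 532 CPM in IP libraries 1, 2 and 3 and 645, 564 and 613 CPM in input libraries 1, 2 and 3. Its ratio turned with the pool, IP being above input in pool 2 and below it in pools 1 and 3. Map1b had 665, 795 and 778 CPM in IP libraries 1, 2 and 3 and 697, 849 and 763 CPM in input libraries 1, 2 and 3. The log2 fold changes were -0.06 ± 0.13 for Map1a and -0.04 ± 0.13 for Map1b (SE, adjusted p = 0.74 and 0.82, edgeR).

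The log2 fold changes were lower in longer genes. In order of the deposited length, the log2 fold change was 0.94 for Tubb3 at 1868 bases, 0.35 for Ina at 3240, 0.69 for Nefl at 3380, 0.80 for Nefh at 3994, 0.56 for Stmn2 at 5602, 0.56 for Nefm at 5782 and 0.34 for Mapt at 7531. The 3 longest genes had values below 0, with -0.06 for Map1a at 12166, -0.04 for Map1b at 15846 and -0.56 for Map2 at 16456 bases. Across the 10 genes Pearson's r between log2 length and log2 fold change was -0.89 and Spearman's rho -0.86, a description over genes that share 6 libraries. Within pools 1, 2 and 3 r was -0.90, -0.72 and -0.83. Over all 18640 tested genes r was -0.13 and rho -0.22.

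**Figure D3:**
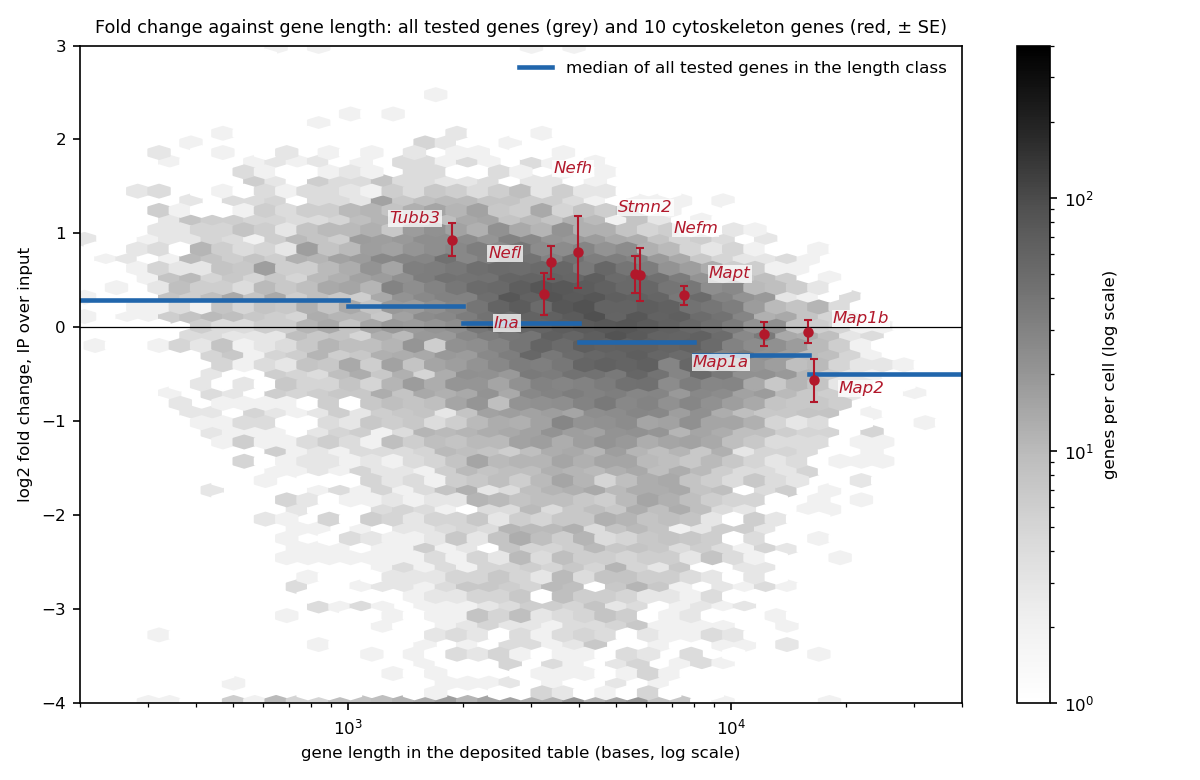
Log2 fold change of IP over input (vertical axis, values beyond the axis gathered at its edge) against the deposited gene length in bases (log scale); grey cells hold all tested genes, red points the 10 cytoskeleton genes with their SE, and blue lines the median of each length class. The class medians step down with length, and 9 of the 10 red points lie above the line of their class, with Map2 just below it.

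A trend with length in the same direction, at an r of -0.13 in place of -0.89, ran through the whole table. The median log2 fold change was 0.22 for genes of over 1000 and up to 2000 bases, 0.05 up to 4000, -0.15 up to 8000, -0.29 up to 16000 and -0.49 above 16000 bases. Beside the median of its own class, Tubb3 was higher by 0.71, Nefl by 0.65, Nefh by 0.76, Nefm and Stmn2 by 0.71, Mapt by 0.49, Ina by 0.31, Map1b by 0.25 and Map1a by 0.23. Map2 differed from its class by -0.07. These classes use the deposited length. In GENCODE M39 the exons of Tubb3 span 3210 bases and those of Mapt 14334, which would place both in longer classes. With M39 lengths r between length and the uncorrected fold change was -0.86 across the 10 genes. An offset for length in the fit, which removes the common trend of each library and keeps the mean change, left Map2 at -0.24 ± 0.16 (SE, adjusted p = 0.31, edgeR) and turned Map1a and Map1b to 0.18 ± 0.12 and 0.21 ± 0.19 (SE, adjusted p = 0.31 and 0.44, edgeR). With the same offset Mapt stood at 0.51 ± 0.10 (SE, adjusted p = 0.00689, edgeR) and Stmn2 at 0.65 ± 0.21 (SE, adjusted p = 0.0475, edgeR). After the offset r between length and fold change was still -0.80 across the 10 genes. The block and the offset together gave Map2 at -0.25 ± 0.12 (SE, adjusted p = 0.13, edgeR), so that its lower call with the block was lost.

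**Figure D4:**
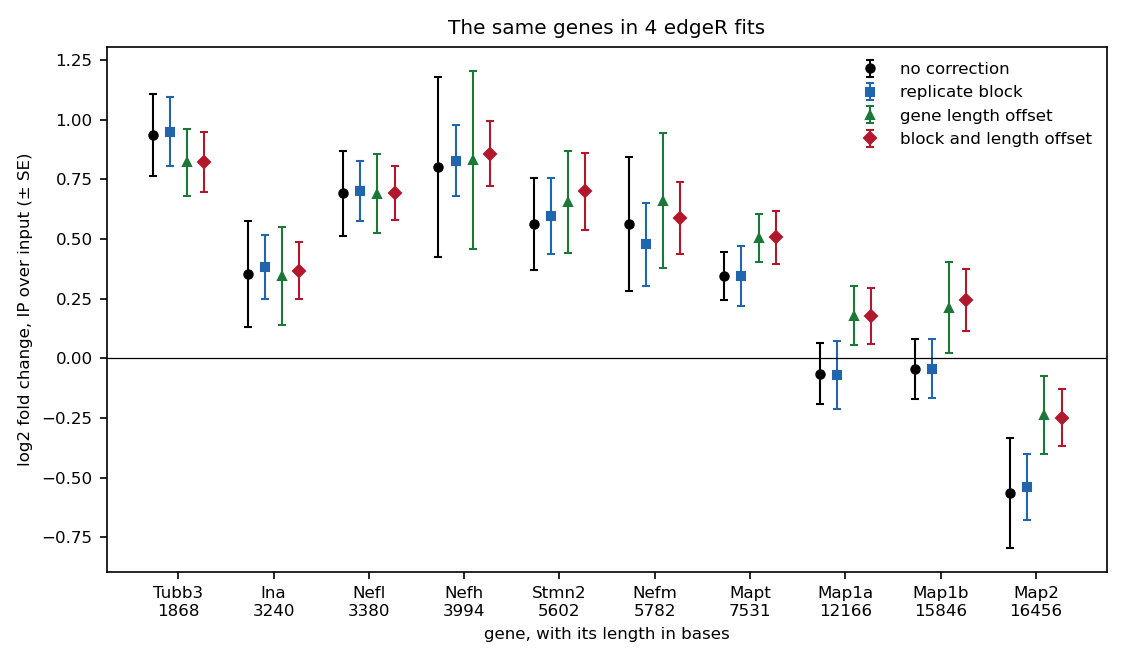
Log2 fold change of IP over input with its SE (vertical axis) for the 10 genes in order of length (horizontal axis, length in bases under each name), in edgeR fits without correction, with the replicate block, with the gene length offset and with both. The block shortens the error bars of Nefh, Nefm, Ina and Map2, and the length offset moves Map1a, Map1b and Map2 upward while Tubb3 moves down.

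Levels were compared between genes per length, in FPKM of the authors. In IP the order was Tubb3 at 630 ± 75.9 FPKM, Nefl at 194 ± 30.5, Stmn2 at 170 ± 15.3, Ina at 162 ± 28.3, Mapt at 98.2 ± 2.71, Nefm at 57.7 ± 26.4, Nefh at 53.4 ± 23.1, Map1a at 47.7 ± 6.11, Map1b at 47.1 ± 4.72 and Map2 at 41.4 ± 8.53 (SD, n = 3). The ranges of Nefl, Stmn2 and Ina overlapped, as did those of the last 5. In input the order was Tubb3 at 324 ± 69.0 FPKM, Ina at 125 ± 39.3, Nefl at 118 ± 25.3, Stmn2 at 113 ± 31.3, Mapt at 75.8 ± 2.62, Map2 at 59.9 ± 17.2, Map1a at 48.9 ± 2.94, Map1b at 47.6 ± 5.08, Nefm at 38.3 ± 5.12 and Nefh, between 16.8 and 44.7, at a mean of 30.1 (SD, n = 3 for the others). Ina, Nefl and Stmn2 overlapped again, and from Mapt downward each gene overlapped with the next. Map2 stood 10th in IP and 6th in input. The length matters here, since the deposited length of Tubb3 is 1868 bases and its exons in GENCODE M39 span 3210. With M39 lengths Tubb3 would be at 367 FPKM in IP and 188 in input, still first of the 10, and Mapt, with 14334 in place of 7531 bases, at 51.6 and 39.8 FPKM.

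Ratios within a library do not depend on scaling; these pairs were chosen after the values were seen and were not tested. Map2 over Tubb3 was 0.0849, 0.0517 and 0.0628 in IP replicates 1, 2 and 3 and 0.317, 0.116 and 0.166 in input replicates 1, 2 and 3, with every IP library below input. Ina over Nefl was 0.835 ± 0.0282 in IP and 1.04 ± 0.116 in input (SD, n = 3), again without overlap. The heavy subunit over the medium one, Nefh over Nefm, was 0.931, 0.906 and 0.956 in IP replicates 1, 2 and 3 and 0.509, 1.04 and 0.739 in input replicates 1, 2 and 3, a narrow range in IP inside a wide one in input. Map1b over Map1a was 0.993 ± 0.113 in IP and 0.981 ± 0.165 in input (SD, n = 3).

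Other genes of the cytoskeleton, taken from lists by function, moved in both directions. Among 87 such genes 19 rose (21.8%) and 14 fell (16.1%), beside the 12.9% and 17.1% of all tested genes. Their median log2 fold change was 0.10. The median length was 3327 bases for those that rose and 7958 bases for those that fell. It was 7126 bases for the 54 genes not called and 6355 bases for all 87. Spearman's rho between length and log2 fold change over the 87 genes was -0.47, a description with no test. The shares of 12.9% and 17.1% also stand beside the edgeR counts of each list below, and no list was tested against them.

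Tubulins and stathmins rose in part, as Tubb3 did. Of 11 other tubulins 4 rose and 1 fell, with a median of 0.34. Tuba1b, an alpha tubulin, had 1008 ± 25.9 CPM in IP and 486 ± 140 CPM in input (SD, n = 3). It rose by 1.05 ± 0.21 on the log2 scale (SE, adjusted p = 0.00681, edgeR). Tubb5 rose by 0.58 ± 0.13, and Tubb2b fell by 0.63 ± 0.16 (SE, adjusted p = 0.0138 and 0.0211, edgeR). Alpha tubulin genes are near copies of each other, so that their counts are uncertain. Of the 3 other stathmins 2 rose. Stmn3, a neuronal stathmin of the Golgi, had 1800, 1781 and 1805 CPM in IP libraries 1, 2 and 3 and 555, 783 and 695 CPM in input libraries 1, 2 and 3. Its log2 fold change of 1.41 ± 0.14 (SE, adjusted p = 0.000378, edgeR) exceeded that of Stmn2 at 0.56, and the difference between the 2 genes was not tested. Stmn1 rose by 0.55 ± 0.14 (SE, adjusted p = 0.0190, edgeR), and Stmn4 had 0.57 ± 0.20 (SE, adjusted p = 0.0623, edgeR).

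Of 5 other intermediate filament genes of brain 1 rose and 2 fell. Prph, which encodes peripherin, a filament partner of the neurofilament subunits in some neurons, had 15.8, 15.4 and 8.63 CPM in IP libraries 1, 2 and 3 and 5.31, 8.10 and 3.33 CPM in input libraries 1, 2 and 3. It rose by 1.25 ± 0.36 (SE, adjusted p = 0.0327, edgeR), at a level far under that of the neurofilament genes. Gfap, of astrocytes, and Vim, of glia and vessel cells, fell, Gfap by 2.51 ± 0.26 and Vim by 1.45 ± 0.28 (SE, adjusted p = 0.000439 and 0.00638, edgeR).

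Of 18 other microtubule-associated proteins 3 rose and 2 fell, with a median of 0.04. With the block and the length offset 8 rose and 2 fell, against 17.9% and 18.3% of all tested genes. Map1lc3a, which encodes a light chain of the MAP1 proteins that also acts in autophagy, rose by 1.09 ± 0.17, and Map7d1 by 0.60 ± 0.11 (SE, adjusted p = 0.00271 and 0.00469, edgeR). Map7 fell by 1.13 ± 0.17, and Dcx, the doublecortin gene of young neurons, by 1.25 ± 0.27 (SE, adjusted p = 0.00233 and 0.0106, edgeR). Of 13 tubulin-modifying enzymes 2 rose, Ttll1 and Hdac6, and 2 fell, Sirt2 and Vash1. Vash1, a tubulin carboxypeptidase, had 1.19, 1.21 and 1.69 CPM in IP libraries 1, 2 and 3 and 14.9, 1.58 and 8.51 CPM in input libraries 1, 2 and 3. Its fall was 2.60 ± 0.69 (SE, adjusted p = 0.0226, edgeR), at a low level and with groups that overlapped, since input of pool 2 lay below IP of pool 3. Sirt2, a tubulin deacetylase known from oligodendrocytes, fell by 1.37 ± 0.18, and Ttll1, a subunit of a polyglutamylase, rose by 0.79 ± 0.14 (SE, adjusted p = 0.00144 and 0.00504, edgeR).

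Motors and the membrane skeleton held members that rose and members that fell. Of 15 kinesin and dynein genes 3 rose and 3 fell. Kif5a, the neuronal kinesin heavy chain that carries neurofilaments, had 800, 775 and 852 CPM in IP libraries 1, 2 and 3 and 3697, 2539 and 2884 CPM in input libraries 1, 2 and 3. It fell by 1.91 ± 0.15 (SE, adjusted p = 0.000133, edgeR), whereas Klc1, a kinesin light chain, rose by 0.68 ± 0.11 (SE, adjusted p = 0.00358, edgeR) and Kif5c had 0.06 ± 0.19 (SE, adjusted p = 0.84, edgeR). Of 9 ankyrins, spectrins and their partners 1 rose, Ank1 at 0.60 ± 0.17, and 4 fell, including Ank3, the ankyrin of the axon initial segment, by 0.89 ± 0.15 and Ank2 by 0.98 ± 0.19 (SE, adjusted p = 0.0273, 0.00395 and 0.00680, edgeR). Ank3 and Ank2 are listed at 34838 and 35510 bases. With the block and the length offset 1 gene of this list rose and 4 fell, against 17.9% and 18.3% of all tested genes. Of 13 kinase genes that act on tau, MAPs or neurofilaments 3 rose and 0 fell in edgeR, with 0 lower in DESeq2 and at an unadjusted p under 0.05 too. Cdk5, which phosphorylates tau and neurofilament tails, rose by 0.85 ± 0.16, and Mapk10 by 0.61 ± 0.13 (SE, adjusted p = 0.00561 and 0.0107, edgeR).

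**Figure D5:**
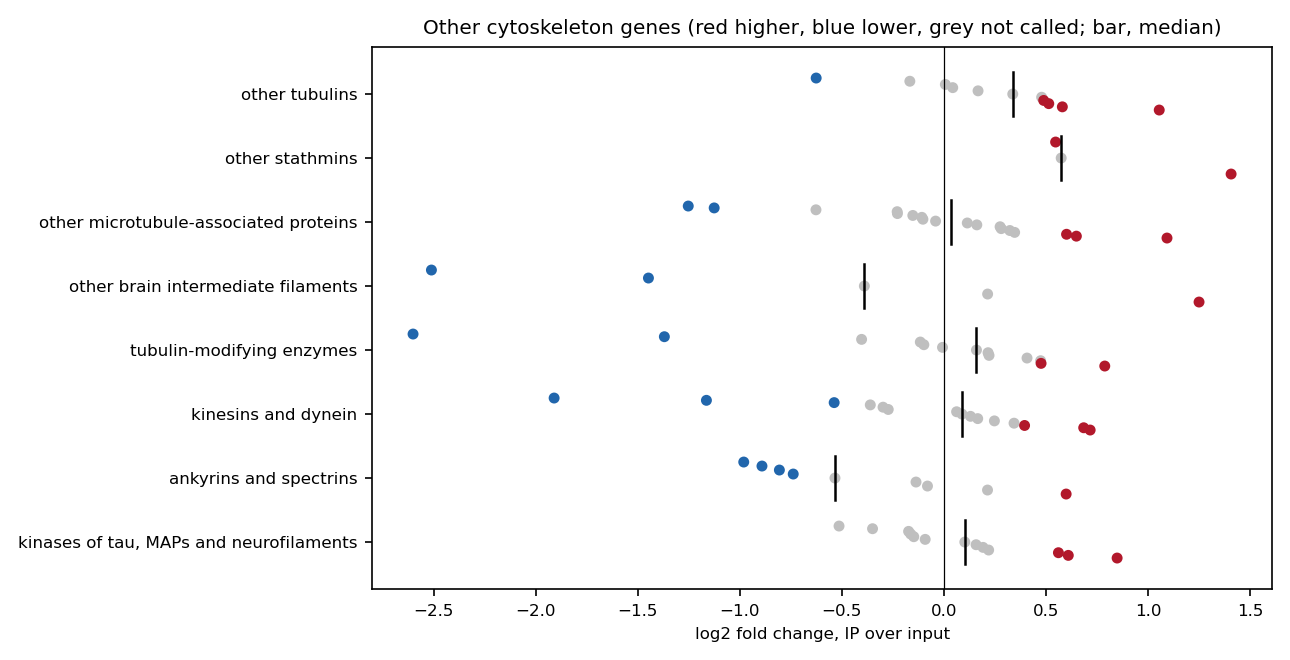
Log2 fold change of IP over input (horizontal axis) for 87 other cytoskeleton genes, 1 row per list; within a row genes are ordered by value, red points rose, blue points fell, grey points did not pass, and the bar is the median. Kif5a lies at -1.91 in its row, Vash1 at -2.60 is the point farthest to the left and Stmn3 at 1.41 the point farthest to the right.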

How the data were processed

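Poly(A)-selected libraries of 3 IP and 3 input samples were sequenced as paired ends of 75 bases, per the labels' protocols. Per the submitters' processing notes, the tools were HISAT2, featureCounts and DESeq2 and the build mm39; tool versions and the strand setting are not given in the sources used here. The deposited table holds raw read counts per gene, made by the authors without normalization. Its deposited normalized signal equals the count over 1 size factor per library (constant over genes within 1e-06), and its deposited FPKM use that size factor and the listed gene length. The table also gives the authors' log2 fold change, p-value and adjusted p per gene, which were copied as deposited.

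The counts were tested with edgeR 4.0.16 in R 4.3.3 (quasi-likelihood test, TMM scaling, filterByExpr, group as the factor, Benjamini-Hochberg, two-sided). The method was also run on simulated counts. These held no differences between pools and no trend with length, so that they cannot check how the block or the offset handles either. SE is the log2 fold change over the square root of F. An IP and an input library with the same number share their tissue pool, per the series' design text, and their deviations from the group means correlated at 0.26, 0.14 and 0.10. The length offset is a spline of 4 degrees of freedom on log2 gene length per library. Of the gene identifiers 27576 were found in GENCODE M39, which is on the same build. Members and lists were chosen with earlier results of these data known. Named genes are the 10 members, Pnoc, per list up to 2 called genes a direction by adjusted p (without any call, the 2 with the highest CPM), and the 5 genes most alike; Stmn4, Kif5c and some members of the marker lists fall outside this rule and were picked with their values in view.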

Additional observations from a re-analysis of the deposited data

How the results depend on the processing

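The count of cytoskeleton genes higher in IP was 3. It became 5 with the replicate block, 7 with the replicate block and the length offset, 7 with GENCODE M39 exon lengths in that fit (chosen after seeing the data), 1 to 5 without any single library and 0 without both libraries of replicate 3. The count lower was 0, and it became 1 with the replicate block, 0 to 1 without any single library and 1 without both libraries of replicate 1; in each case the gene was Map2. Over all genes 2400 were higher and 3191 lower. These counts ran from 1446 to 2636 and from 2109 to 3025 without a single library, and were 1550 and 2117 without replicate 2 and 150 and 790 without replicate 3, where 4 libraries remained. Other scalings, filters and DESeq2 kept all 4 counts within 1.5 times.

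The log2 fold change of Map1a turned from -0.06 to 0.18 with the length offset, 0.18 with block and offset, 0.063 with M39 lengths, 0.025 without replicate 1 and 0.0017 without replicate 3, and the fits with libraries left out ran from -0.19 to 0.025. That of Map1b turned from -0.04 to 0.21, 0.24 and 0.16 in the 3 fits with length, and to 0.031 without IP replicate 1, 0.069 without input replicate 2 and 0.015 without replicate 2, and the fits with libraries left out ran from -0.11 to 0.069. Neither gene passed the test in any of these fits. The other 8 genes kept their direction in all 19 alternatives. Mapt lost its call in 11 of them, Nefl in 4 and Tubb3 in 1. Each of the 10 genes had at least 3586 counts in every library, so that counting error is small beside the spread between the 3 pools.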
